A study of Mus musculus with 6 samples.

Results

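Cluster 12 is 1 of the 14 groups, numbered 0 to 13, into which the authors divided their single cells and nuclei by gene expression, all from the mouse mammary tumour line PB3. Its members are all entries that the deposited table of cells assigns to cluster 12, 1103 of 51785 in all, which makes it the second smallest of the 14. The study followed PB3 through successive rounds of eribulin or paclitaxel and read the RNA of 6 libraries in 3 runs. Run 1 gave untreated cells (UNT cells) and cells after 4 rounds of eribulin (ERI4 cells), and run 3 gave nuclei of the same designs (UNT nuclei and ERI4 nuclei). Run 2 gave 1 library per drug. Each pooled the cells of 3 conditions marked with hashtag oligos, treated for 1, 2 or 3 rounds: ERI1, ERI2 and ERI3 with eribulin, PAC1, PAC2 and PAC3 with paclitaxel. A round of eribulin was 500 nM for 72 h followed by 48 h without the drug, and paclitaxel was given at 100 nM in the first round and 250 nM later. All conditions are of the 1 cell line in culture, and run 2 has no untreated library. Each condition has 1 library, so cells are not replicates, no test was made, and intervals cover counting error only.

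Eribulin and paclitaxel both act on microtubules, the filaments that build the mitotic spindle: eribulin blocks their growth and paclitaxel stabilises them, and both can hold cells in mitosis. Cells that come through treatment and divide again carry high levels of the transcripts used in DNA synthesis (S phase) and in preparation for mitosis (G2 and M), which S and G2M phase scores sum up. A lentiviral lineage barcode is a designed sequence that integrates into the genome, is transcribed and passes to all daughter cells, so that cells with the same barcode can be read as 1 lineage.

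The barcode called most often in cluster 12 was bc14-39-bc30-41529, here called the leading barcode. It is shown with bc14-55-bc30-23349, the only other barcode that at least 10 cluster 12 cells of ERI3 or ERI4 carried. Capitals mark the 2 variable parts of 14 and 30 bases, and the 4 lower-case bases are the linker between them.
bc14-39-bc30-41529: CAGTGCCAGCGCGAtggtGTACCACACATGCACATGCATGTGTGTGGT
bc14-55-bc30-23349: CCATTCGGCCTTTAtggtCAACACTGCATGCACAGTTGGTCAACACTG
The sequences differ at 9 of the first 14 and at 20 of the last 30 bases. Among the 185 barcodes of the list used for run 2, the closest to the leading barcode differed from it at 23 bases, and the closest to bc14-55-bc30-23349 at 17 bases. Both are thus far from every other listed barcode.

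Nearly all members of cluster 12 came from the later rounds of eribulin. ERI4 cells gave 689 of them, ERI4 nuclei 237 and ERI3 cells 154, while the other 7 conditions together gave 23. As a share of its condition the cluster held 7.38% of the 9331 ERI4 cells (exact Clopper-Pearson 95% interval 6.86 to 7.93%), 5.01% of the 3076 ERI3 cells (4.26 to 5.84%) and 2.72% of the 8711 ERI4 nuclei (2.39 to 3.08%). Within run 1, the untreated cells gave 3 of 11061 members, a share of 0.0271% (0.00559 to 0.0792%), and within run 3 the untreated nuclei gave 6 of 9916, or 0.0605% (0.0222 to 0.132%). Both differences between ERI4 and UNT of the same run are far larger than the counting error. Within the eribulin library of run 2, ERI1 gave 5 of 1865 cells (0.268%, 0.0871 to 0.625%) and ERI2 gave 4 of 1257 (0.318%, 0.0868 to 0.813%). The intervals of ERI1 and ERI2 overlap, and that of ERI3 lies above both. Paclitaxel gave 3 of 2928 PAC1 cells, none of 848 PAC2 cells (a count of 0 allows up to 0.354%), and 2 of 2792 PAC3 cells (0.0716%, 0.00868 to 0.259%), so that after 3 rounds of drug the cluster was a feature of the eribulin cells and not of the paclitaxel cells of run 2. ERI3 and ERI4 were made in different runs and at different depths, with medians of 11266.5 and 20877 UMIs (counted RNA molecules) per cell, and the step from 5.01 to 7.38% cannot be told apart from the change of run. The lower share in the ERI4 nuclei likewise stands beside a median of 2089 UMIs per nucleus. Among nuclei with at least 1000 genes it was 3.44%.

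The deposited phase scores, available for cells only, placed most members outside G1. A cell was called G1 where both scores were at or below 0, and otherwise took the phase of its higher score. Of the 689 ERI4 members, 318 were called G2M, 200 S and 171 G1, so that 75.2% were in S or G2M (71.8 to 78.4%). The other ERI4 cells had 59.3% in S or G2M (58.3 to 60.3%), and clusters 2, 3 and 8, which hold most of the remaining ERI4 cells, had 66.6% (64.5 to 68.7%), 54.8% (53.4 to 56.3%) and 65.3% (62.8 to 67.7%). In ERI4 the share of cluster 12 was thus higher than in each of the 3 by more than the counting error. The untreated cells of the same run stood at 71.0% (70.1 to 71.8%), and there the intervals only just meet. Whether the members differed from untreated cells in this share was not tested. Of the 154 ERI3 members, 76 were called G2M, 28 S and 50 G1, or 67.5% in S or G2M (59.5 to 74.8%). The other ERI3 cells had 59.6% (57.8 to 61.4%) and cluster 2 had 62.5% (60.1 to 64.8%), values inside the interval of cluster 12, while clusters 3 and 8 had 53.3% (46.6 to 60.0%) and 54.7% (50.8 to 58.6%), the first with an interval that still meets that of cluster 12. The phase scores, from which the calls were made, were the only measure of cycling analysed here. By the calls, cluster 12 was set apart from the other cells and from clusters 2, 3 and 8 in ERI4. In ERI3 its interval was clear of that of cluster 8 and overlapped those of the other cells and of clusters 2 and 3. Overlapping intervals do not show that a gap is within counting error, and these gaps were not tested. The difference between the conditions was not tested. Many calls lay close to the border: 48 of the 154 ERI3 and 149 of the 689 ERI4 members had a score within 0.05 of 0. With the border moved to 0.1 the S or G2M share of the members fell to 41.6% in ERI3 and 60.1% in ERI4. The other cells were not recounted at that border, so these shares cannot be set against theirs.

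The scores themselves showed a modest shift. The median G2M score of the ERI4 members was -0.01 (95% order-statistic interval of the median -0.05 to 0.05) against -0.12 (-0.13 to -0.11) in the other ERI4 cells, and a member had the higher score in 57.9% of all pairs of a member and another cell. The median S score was -0.085 (-0.101 to -0.066) against -0.150 (-0.155 to -0.145), and the member was higher in 60.9% of pairs. Both distributions overlapped widely with those of the other cells, since a share of 50% would mean no shift at all. In ERI3 the median G2M score was 0.005 (-0.055 to 0.073) against -0.065 (-0.080 to -0.054), and the median S score was -0.10 (-0.14 to -0.07) against -0.14 (-0.15 to -0.13). The ERI3 members were higher in 54.5% of pairs for G2M and 54.6% for S. In ERI3 the intervals of members and other cells overlap for the S score and meet at their edge for the G2M score. Whether either shift exceeds the counting error was not tested. Against cluster 2, the ERI4 members had the same median S score and a G2M median higher by 0.10, so that in ERI4 cells the distinction from cluster 2 lay in G2M.

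**Figure D1:**
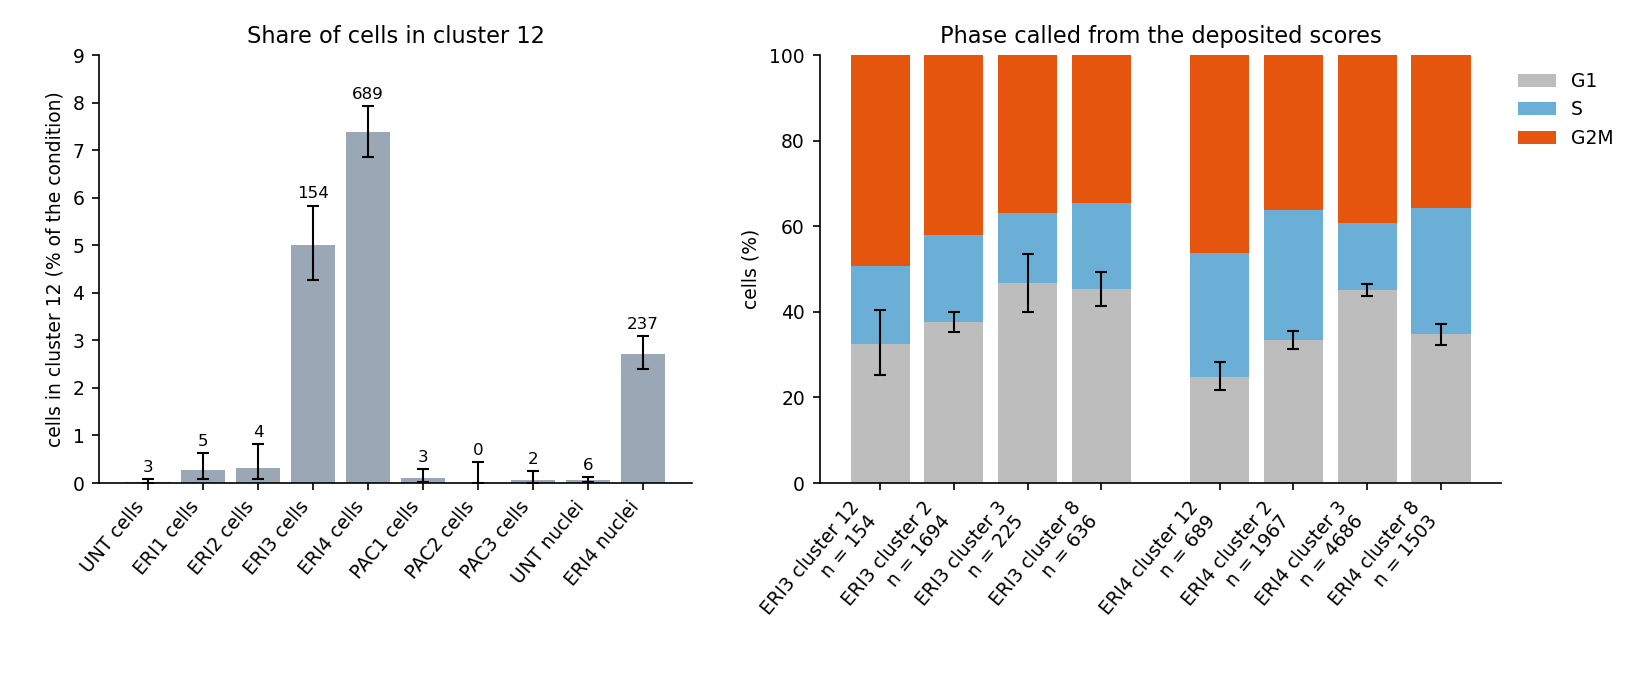
Left, bars give the share of each condition's cells or nuclei in cluster 12 (%), with exact 95% intervals and the number of members above each bar; ERI4 cells, ERI3 cells and ERI4 nuclei stand at 7.38, 5.01 and 2.72%, and the other conditions lie below 1%. Right, stacked bars give the share of cells (%) called G1, S and G2M in clusters 12, 2, 3 and 8 of ERI3 and ERI4, with the exact 95% interval of the G1 share. The G1 share of cluster 12 in ERI4, 24.8%, lies below those of the other 3 clusters, while in ERI3 its interval overlaps those of clusters 2 and 3.

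Members had somewhat more genes per cell than the other cells of their condition. The members had a median of 21531 UMIs and 4505 genes per cell in ERI4 against 20831 and 4317.5 in the other ERI4 cells, and the intervals overlap for UMIs but not for genes (4434 to 4590 against 4290 to 4341). In ERI3 the medians were 11840.5 UMIs and 3209 genes (3083 to 3274) against 11224 and 2955 (2915 to 2986). Cells called S or G2M hold more RNA than those called G1, and this was true within cluster 12 too: the ERI4 members called G1 had a median of 17623 UMIs, those called S 22071 and those called G2M 24415.5. Within a window of UMIs common to members and other cells (above both 10th and below both 90th percentiles), members gave S or G2M shares of 73.0% in ERI3 and 76.1% in ERI4. The share of the other cells in that window was not computed, so these shares do not compare the 2 at equal depth. The median scores were compared there. Members were higher by 0.095 (G2M) and 0.042 (S) in ERI3, and by 0.113 and 0.060 in ERI4. In the nuclei the members had 2553 UMIs and 1394 genes against 2075.5 and 1180, the widest relative gap of the 3. Some compared clusters shared this trait. Cluster 2 in ERI4 also had a median of 4505 genes, and cluster 3 in ERI3 had 3164. In the nuclei clusters 2, 3 and 8 had 1350, 1528.5 and 1330 genes. Clusters 3 and 8 in ERI4 (4324 and 4206) and clusters 2 and 8 in ERI3 (2990 and 2772) had fewer genes than cluster 12. The median share of UMIs from mitochondrial genes was 2.63% (2.49 to 2.79%) in the ERI3 members against 3.00% (2.96 to 3.04%) in the other ERI3 cells, 4.73% and 4.70% respectively among ERI4 cells, and 13.5% and 12.8% among ERI4 nuclei. It was lower in the members in ERI3, equal within counting error in ERI4 cells, and higher in the nuclei, where the interval of the members, 12.9 to 14.3%, only just clears the 12.7 to 12.9% of the other nuclei. All 1103 members met the gene and mitochondrial limits of the filter stated by the authors, with at least 464 genes and at most 35.0% mitochondrial UMIs. The ribosomal limit was not checked.

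On the authors' pseudotime, a score of distance along a path from the untreated cells, cluster 12 was held within a narrow range. Of the 154 ERI3 members, 134 shared the value 26.88 to 2 decimals, which only 3 ERI3 cells of other clusters had. The median of the other ERI3 cells was 22.48, so that the members lay 4.40 further along, and a member was higher in 96.9% of pairs. Cluster 8 lay earliest in ERI3 with a median of 15.58, followed by cluster 2 with 22.68 and cluster 3 with 25.04. Cluster 3 spread to a 90th percentile of 30.13, so cluster 12 was not the last in every cell. In ERI4 cells the members had a median of 26.12 with a 10th to 90th percentile range of 25.62 to 26.88. The values 26.12, 26.88 and 26.59 alone took 169, 69 and 63 of the 689. The first was not particular to cluster 12, since 641 ERI4 cells of other clusters also had 26.12. Only 2 had 26.88 and 0 had 26.59. The remaining ERI4 cells had a median of 27.60, and the members lay 1.48 before it. That median reflects cluster 3, which held 4686 of the ERI4 cells at a median of 29.99, while clusters 2 and 8 stood at 25.67 and 17.82. The order by median in ERI4 was thus cluster 8, cluster 2, cluster 12 and cluster 3. The members were higher in 76.4% of pairs with cluster 2 and in 5.66% of pairs with cluster 3. In ERI4 nuclei the members had a median of 25.42 (25.20 to 25.71) against 22.48 (22.35 to 22.69) in the other nuclei and were higher in 78.7% of pairs. Their spread was the broadest of the 3, with a 10th percentile at 21.63. The same cluster number therefore stood late among the ERI3 cells and the ERI4 nuclei and in the middle of the ERI4 cells.

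**Figure D2:**
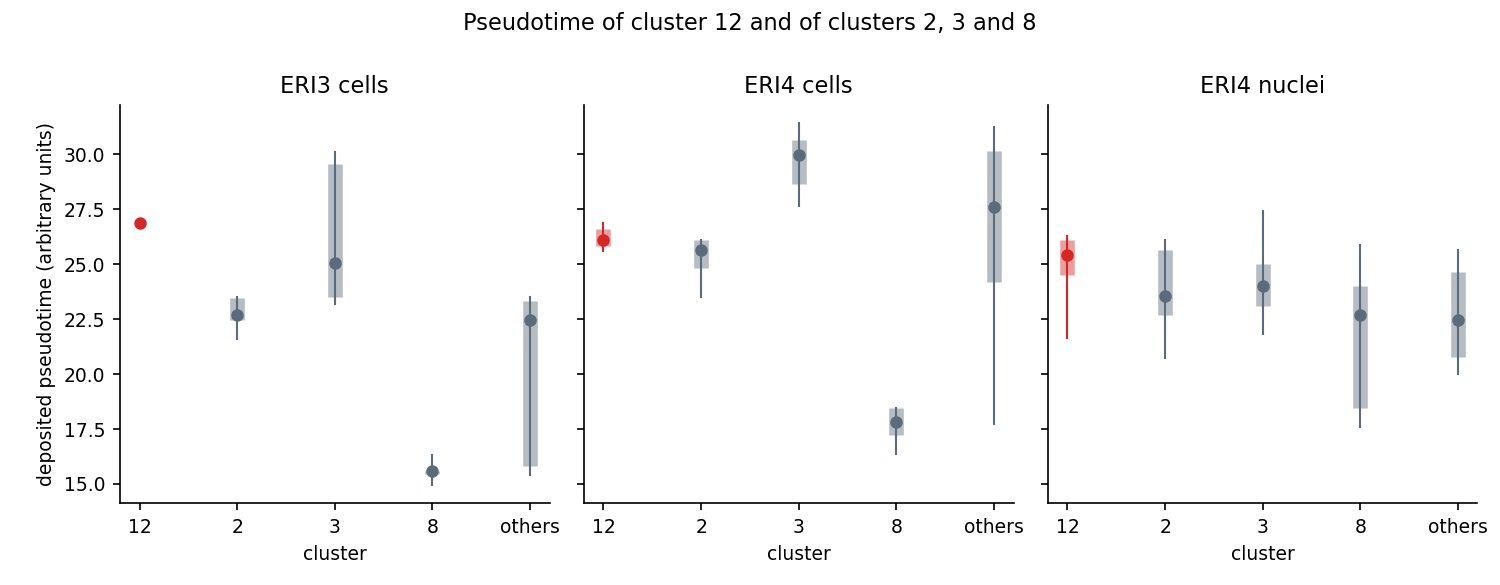
Deposited pseudotime (arbitrary units) of clusters 12, 2, 3 and 8 and of all cells outside cluster 12 (others) in ERI3 cells, ERI4 cells and ERI4 nuclei. Points are medians, thick bars the middle 50% of cells and thin lines the 10th to 90th percentiles. Cluster 12 (red) lies at 26.88, 26.12 and 25.42, above the others in ERI3 and in the nuclei and below cluster 3 in ERI4 cells.

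Cluster 12 did not form a single place on the deposited UMAP, a map of 2 arbitrary axes on which similar cells lie near each other. In ERI4 cells the members lay in a compact island of their own at a median position of 1.23 and 1.31, and 87.3% of the 30 nearest neighbours of a member were also cluster 12. In ERI3 the members lay at -1.46 and -1.04, and 14.4% of their nearest neighbours were cluster 12, against 39.6% in cluster 2, 20.0% in cluster 6 and 11.5% in cluster 7. Of the neighbours of the ERI3 members, 44.2% were ERI3 cells and 27.9% were PAC1 cells, so the members were mixed with cells of both drugs of run 2. In the nuclei only 4.87% of the neighbours of members were cluster 12, and 32.9% were in cluster 10 and 31.5% in cluster 4, the clusters around them. For scale, the same measure gave 91.8, 94.7 and 91.4% for clusters 2, 3 and 8 in ERI4 cells, and 77.3, 17.7 and 83.9% in ERI3. In the nuclei it gave 14.9, 12.7 and 6.98%. Having few neighbours of its own number was thus shared with cluster 3 in ERI3 and with all 3 clusters in the nuclei.

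Within ERI4 the island was not the whole cluster. In 619 of the 689 members at least 50% of the neighbours were cluster 12, and in 60 members fewer than 10% were. The scattered 60 lay mainly among cluster 3, which made up 57.4% of their neighbours. They had a median of 36443.5 UMIs against 20680 in the island. Of the 60, 49 carried 2 or more detected barcodes (81.7%), and 21 were called Doublet or Multiplet (35.0%), against 124 (20.0%) and 17 (2.75%) of the 619. No barcode was detected in 487 of the 619 (78.7%), against 11 of the 60 (18.3%). The scattered members thus had more RNA than the island, and a barcode was detected in a larger share of them. Whether they are droplets that hold more than 1 cell was not tested, since no doublet caller was run. Their S or G2M share was 68.3%, and that of the island 75.9%.

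**Figure D3:**
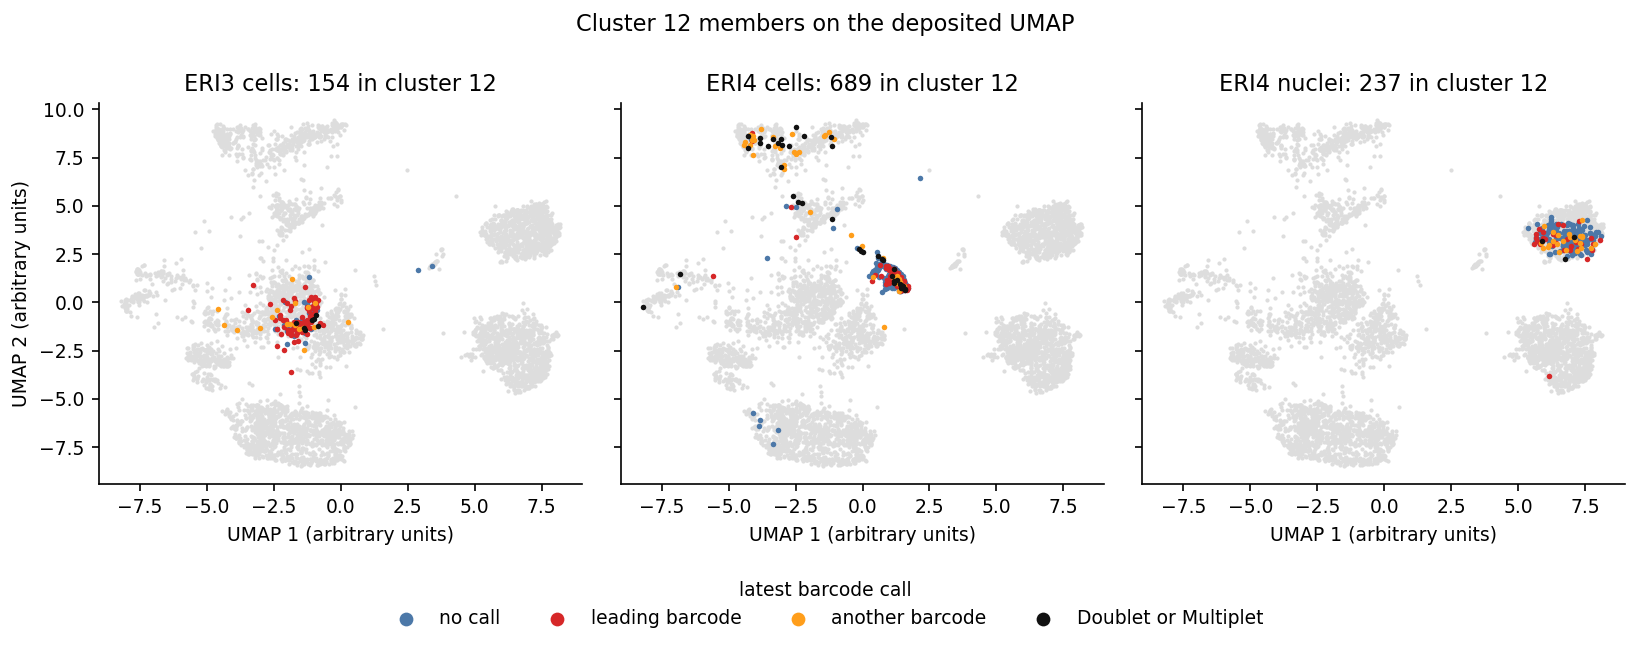
Position of the cluster 12 members (coloured) on the deposited UMAP (both axes in arbitrary units) in ERI3 cells, ERI4 cells and ERI4 nuclei, over every 10th cell outside the cluster (grey). Colours give the latest barcode call; ERI4 cells show 1 dense island of leading-barcode cells and cells with no call, and a scatter of cells with another barcode or a Doublet call among cluster 3 at the top.

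Where a single barcode was called, most members carried the leading barcode. Such calls covered 70.8% of the ERI3 members, 21.3% of the ERI4 members and 22.8% of the members among ERI4 nuclei. By the latest of the authors' 3 successive barcode calls, 91 of the 109 ERI3 members with a single called barcode carried the leading barcode (83.5%, 75.2 to 89.9%). So did 109 of 147 ERI4 members (74.1%, 66.3 to 81.0%) and 30 of 54 ERI4 nuclei (55.6%, 41.4 to 69.1%). The ERI3 members carried 14 different barcodes in all, and the next was bc14-6-bc30-93034 with 5 cells. In ERI4, 26 of the 38 others carried bc14-55-bc30-23349, the second sequence shown above. Of these 26, 20 were among the scattered members and 4 in the island, where 104 cells had the leading barcode. The leading barcode was nearly absent from clusters 2, 3 and 8. In cluster 2, 5 of 1034 called cells had it in ERI3 and 1 of 484 in ERI4. None of the called cells of clusters 3 and 8 did, of which there were 216 and 616 in ERI3 and 4526 and 1358 in ERI4. Clusters 6 and 7 also lay near the ERI3 members on the UMAP. They held 1 and 4 ERI3 cells with the leading barcode, beside 106 and 62 with other barcodes. Clusters 2, 3 and 8 each had a leading barcode of their own. Cluster 2 was 75.4% bc14-76-bc30-49517 in ERI3 and 85.5% in ERI4, and cluster 3 was 90.7 and 97.9% bc14-55-bc30-23349. Cluster 8 was led by bc14-6-bc30-93034 in ERI3 (80.7%) and by bc14-95-bc30-33662 in ERI4 (47.9%). These 3 further names were chosen after their values were seen. A cluster that is mostly 1 lineage was thus not particular to cluster 12.

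Read the other way, the lineage of the leading barcode lay mostly in cluster 12 in ERI3 and ERI4 cells. Of its 104 ERI3 cells 91 were in the cluster (87.5%, 79.6 to 93.2%), and of its 113 ERI4 cells 109 (96.5%, 91.2 to 99.0%). Of the ERI3 and ERI4 cells with any other single barcode, 0.853% (18 of 2111) and 0.575% (38 of 6612) were in cluster 12. Earlier in treatment most of the lineage was elsewhere. Of its 86 ERI1 cells 81 were in cluster 7 and 4 in cluster 12, and of its 57 ERI2 cells 54 were in cluster 7 and 2 in cluster 12. Cluster 7 was where most barcoded cells of these rounds lay, with 91.8% of the ERI1 cells and 90.3% of the ERI2 cells that had other barcodes. The share of the lineage in cluster 7, 94.2% and 94.7%, was thus near that of the other barcodes. Cluster 12 already held more of the lineage in ERI1, 4.65% (1.28 to 11.5%) against 0.0787% of the cells with other barcodes (0.00199 to 0.438%), or 4 of 86 cells against 1 of 1270. In ERI2 it was 2 of 57 against 1 of 825, with intervals that overlap. In untreated cells 12 of its 16 cells were in cluster 5 (75.0%, 47.6 to 92.7%), which held 26.1% of the cells with other barcodes (24.9 to 27.3%), so the lineage lay apart from them there too. In untreated nuclei 32 of 44 were in cluster 0, where 66.4% of the other barcoded nuclei lay.

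As a share of barcoded cells the lineage was larger after eribulin than before. It made up 16 of 5087 untreated cells (0.315%, 0.180 to 0.510%) and 113 of 6725 ERI4 cells of the same run (1.68%, 1.39 to 2.02%), and 44 of 4935 untreated nuclei (0.892%, 0.649 to 1.20%) and 79 of 1495 ERI4 nuclei (5.28%, 4.21 to 6.54%). These shares count only cells with a single called barcode, which were 46.0% of UNT and 72.1% of ERI4 cells, but 49.8% of UNT and 17.2% of ERI4 nuclei. The smallest barcode count above 0 was 10 UMIs in the UNT cells and 8 in the ERI4 cells. Cells of the lineage had medians of 12 and 10 barcode UMIs there. Whether the unequal floors affect the gap between UNT and ERI4 cells was not tested. Over all cells or nuclei the lineage was 0.145% of UNT cells (0.0827 to 0.235%) and 1.21% of ERI4 cells (0.999 to 1.45%), and 0.444% of UNT nuclei (0.323 to 0.595%) and 0.907% of ERI4 nuclei (0.719 to 1.13%), a much smaller gap in the nuclei than among those with a call. Within run 2 it stood at 6.34% in ERI1 (5.10 to 7.77%), 6.46% in ERI2 (4.93 to 8.29%) and 4.70% in ERI3 (3.85 to 5.66%), and these 3 intervals overlap. In the paclitaxel conditions it was 1.23% of PAC1 (22 of 1792 cells), 2 of 569 PAC2 cells and none of 2286 PAC3 cells (a count of 0 allows up to 0.131%). So the lineage was present at the later eribulin rounds and not detected after 3 rounds of paclitaxel. By comparison bc14-55-bc30-23349, the lineage of cluster 3, was 0.369% of ERI1 and 13.8% of ERI3 within the eribulin library, and made up 68.4% of barcoded ERI4 cells against 0.275% of untreated cells. The 2 lineages that gave cluster 12 most of its ERI4 barcodes thus had very different sizes, and 26 cluster 12 cells were only 0.566% of the larger one.

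**Figure D4:**
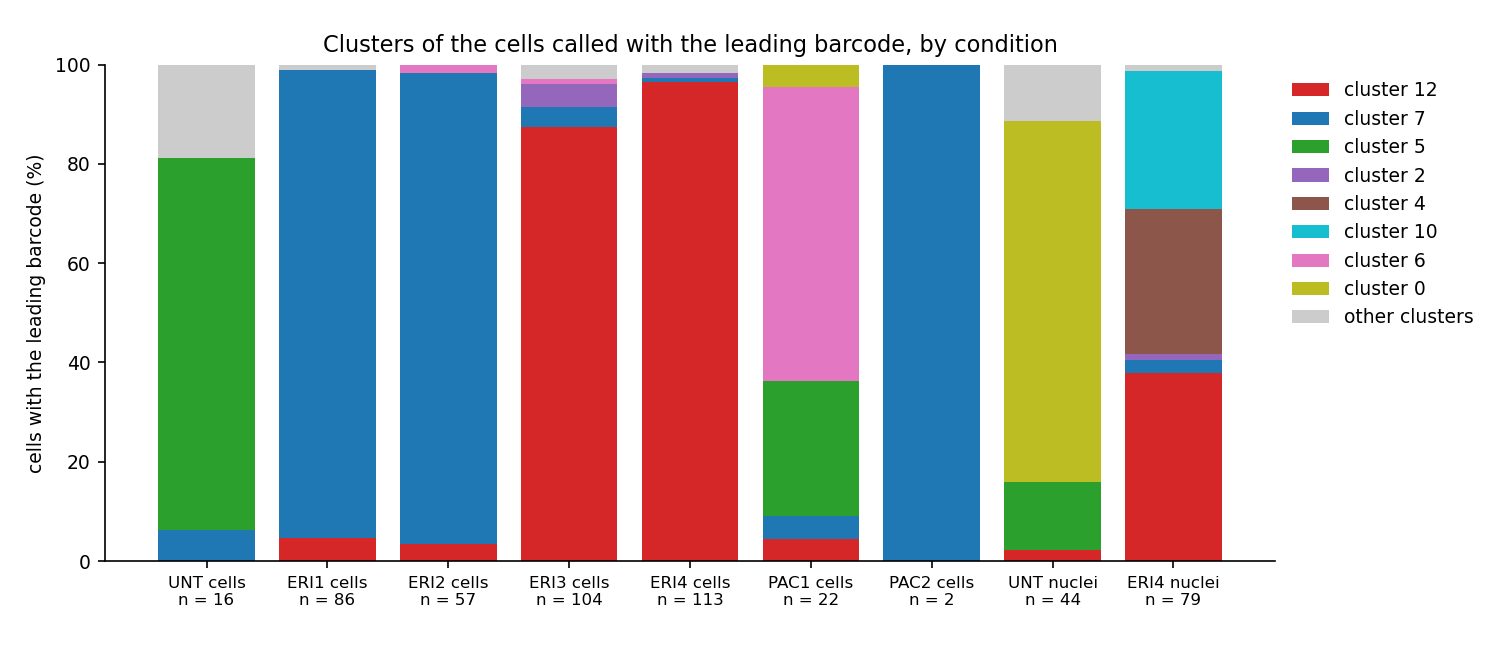
For each condition with cells of the leading barcode (n below each bar; PAC3 has none), the share of those cells (%) in each cluster. Cluster 7 (blue) holds 94.2 and 94.7% after 1 and 2 rounds of eribulin, and cluster 12 (red) holds 87.5, 96.5 and 38.0% in ERI3 cells, ERI4 cells and ERI4 nuclei; the bars of PAC2 and UNT cells rest on 2 and 16 cells.

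In the nuclei the link was looser. Of the 79 ERI4 nuclei with the leading barcode, 30 were in cluster 12 (38.0%, 27.3 to 49.6%), 23 in cluster 4 and 22 in cluster 10, the clusters that held 30.8% and 42.8% of the nuclei with other barcodes. Still, only 1.69% of the nuclei with other barcodes (24 of 1416) were in cluster 12. The nuclear calls also changed between versions: of the 30, 10 had carried the leading barcode in the original call. Of the same 30, 15 had been called bc14-55-bc30-23349 and 10 Negative at the first revision, and 4 carried the leading barcode then. At that revision 100 of 129 barcoded cluster 12 nuclei were called bc14-55-bc30-23349, of which 54 had no barcode detected in the deposited count, and the latest call gives that barcode to no cluster 12 nucleus.

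Barcode detection limits how far the lineage can be read in ERI4. No barcode was detected in 501 of the 689 ERI4 members (72.7%, 69.2 to 76.0%). Cluster 2 was the same in this respect with 73.1% (71.0 to 75.0%), whereas clusters 3 and 8 had 2.05% and 8.32%. In ERI3, 24.0% of the members had none (17.5 to 31.6%), below the 35.8% of cluster 2 (33.5 to 38.2%) and above the 1.78% and 1.26% of clusters 3 and 8. The ERI4 members with no barcode had a median of 19221 UMIs and those with 1 or more had 31389.5. The few cells of cluster 3 with none had 7842.5, so that cells lacked a barcode at a higher RNA content in cluster 12 than in cluster 3. Where barcodes were detected, the ERI4 members had a median of 12 barcode UMIs per cell and those of cluster 3 had 31. No cell of the run 1 eribulin library had between 1 and 7 barcode UMIs, while the eribulin library of run 2 held 483 cells with 1, so detection cannot be compared between ERI3 and ERI4. In ERI3, 46 of the 91 calls of the leading barcode rested on 1 barcode UMI. Among ERI3 members called on 2 or more, 45 of 59 had the leading barcode (76.3%).

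The members with no call resembled those with the leading barcode in UMAP place and pseudotime. In ERI4 the 502 members with no call had 94.0% of their UMAP neighbours in cluster 12 and the 109 with the leading barcode had 92.8%. Their pseudotime medians were 26.13 and 26.18. The S or G2M shares were 73.9% (69.8 to 77.7%) and 81.7% (73.1 to 88.4%), with overlapping intervals. They differed in depth, with medians of 19232.5 and 27002 UMIs and of 4246.5 and 4986 genes. Their median G2M scores also differed, at -0.035 with no call and 0.116 with the leading barcode. The median S scores were -0.087 and -0.096. The 38 members with another barcode and the 40 called Doublet or Multiplet stood apart from both in depth and place: their median UMIs were 37006 and 39380.5, and 30.2% and 41.6% of their neighbours were in cluster 12. Their median of 3 detected barcodes was that of the members with the leading barcode. Without both sets, an alternative chosen after seeing the data, the ERI4 S or G2M share was 75.3% and the pseudotime difference -1.47, as before, but the median depth of the cluster turned from 700 UMIs above the other ERI4 cells to below them, a difference of -670.

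In ERI3 the 38 members with no call and the 91 with the leading barcode had the same pseudotime median of 26.88, S or G2M shares of 63.2% (46.0 to 78.2%) and 65.9% (55.3 to 75.5%), and medians of 10230 and 11836 UMIs. The groups did not differ by more than the counting error in phase.

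Most ERI4 cells with the leading barcode also held further barcodes. Of the 109 in cluster 12, 102 had been called Doublet in the authors' original version, and 106 of all 113 had 2 or more barcodes detected, with a median of 3. If only members with a single barcode in the original call are counted, 7 of 19 ERI4 members had the leading barcode (36.8%) and 9 had bc14-55-bc30-23349 (47.4%), while in ERI3 the same count gave 83 of 91 (91.2%). The leading barcode thus led cluster 12 in ERI3 under each version of the calls, and the ERI4 value depends on the authors' later reassignment of cells that they first called Doublet. Restricting ERI4 to members with at most 1 detected barcode gave 87.5%, on few cells. In untreated cells all 16 cells with the leading barcode had 2 or more barcodes, and 14 had first been called Doublet.

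Among the 23 members outside ERI3 and ERI4, 8 carried the leading barcode: 4 of 5 in ERI1, 2 of 4 in ERI2, 1 of 3 in PAC1 and 1 of 6 untreated nuclei. The 3 untreated cells were all called G2M, had pseudotime values from 26.12 to 26.88 and did not carry it. The ERI1 and ERI2 members were called G2M in 4 of 5 and 3 of 4 cells. Their pseudotime ran from 13.73 to 26.84 in ERI1 and from 14.10 to 26.88 in ERI2, so that some stood with the bulk of their own condition and some with the cluster. These few cells allow no rate. Of the 1103 members, 15 shared their 10x cell barcode with an entry of another library (1.36%, against 0.946% of all cells), and in no case were both entries in cluster 12.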

How the data were processed

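The deposited table of cells, UMAP coordinates and barcode sequence lists were used, and no expression matrix was analysed here, so no gene is named and the cluster was not checked against marker genes. The submitters' processing notes and the series' design name the genome build mm10 and, as counting tools, Cell Ranger 3.1.0 in run 1, Cell Ranger 4.0.0 in run 2 and Cell Ranger ARC 1.0.0 in run 3. Cells with under 200 genes, or over 50% of UMIs in mitochondrial or ribosomal genes, were removed, and the rest clustered and mapped with Seurat 3.1.4. Monocle3 0.2.1 gave pseudotime with untreated cells as root. The deposited counts are UMIs, genes, barcode UMIs and barcodes per cell, not normalized. The deposited percent values are mitochondrial shares of UMIs. The deposited score columns hold phase scores, pseudotime and UMAP coordinates on arbitrary scales. In nuclei the deposited number of barcodes is never below 1, and 1 was subtracted as the unmapped class; barcode UMIs of nuclei are not reported.

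Members are the cells that the authors placed in cluster 12. Members, compared clusters (2, 3 and 8, which hold most other ERI3 and ERI4 cells) and rules were chosen with earlier results of these data known. Barcodes were named where they were among the 5 most frequent in ERI3 or ERI4 members with at least 10 of them. Shares have exact Clopper-Pearson 95% intervals, medians order-statistic intervals, and a count of 0 the share that 3 cells would make. Comparisons stay within a condition or run. Doublets were left in and are described by the authors' calls only. Python 3.11.15, pandas 2.3.3, scipy 1.17.1 and scikit-learn 1.9.0 were used.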

Additional observations from a re-analysis of the deposited data

Results flagged for a closer look

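Pseudotime of cluster 12 stood on opposite sides of the other cells in different conditions: the median difference was 4.40 in ERI3 cells and 2.94 in ERI4 nuclei, and -1.48 in ERI4 cells. The mitochondrial share did likewise, with -0.364 percentage points in ERI3 cells and 0.745 in ERI4 nuclei. These differences between conditions were not tested, since each condition has 1 library and the 3 come from different runs.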

How the results depend on the processing

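Of 76 values under alternative settings of 23 results, 56 stayed within the counting interval and 20 moved beyond it. The sign changed for the ERI4 differences in UMIs and in mitochondrial share (0.0246 to -0.0626 percentage points with at most 1 barcode), both with intervals that include 0. The cause of the moves was not tested. With at most 1 detected barcode the ERI4 share in cluster 12 was 9.05%, and in nuclei it was 3.44% with at least 1000 genes and 3.47% in the common UMI window. In ERI4 the barcode setting removed 26.1% of cluster 12, 24.3% of cluster 2, 40.1% of cluster 3 and 67.2% of cluster 8. A phase border at 0.1 gave 41.6% (ERI3) and 60.1% (ERI4) of the members in S or G2M, with the other cells not recounted. The pseudotime difference was 4.39, -1.93 and 1.90 (ERI3, ERI4, nuclei) against clusters 2, 3 and 8 only, 4.65 and -3.81 among G1 cells, -1.72 in ERI4 with at most 1 barcode and 1.94 in nuclei with at least 1000 genes. Without members that have another barcode or a Doublet call, chosen after seeing the data, the ERI4 UMI difference was -670. The leading barcode's share was 91.2% (ERI3) and 87.5% (ERI4, on few cells) with at most 1 barcode, 91.6% and 86.8% by the first revision, and 91.2% and 36.8% without any earlier call of more than 1 barcode. Among neighbours of the same condition 29.7% of those of ERI3 members were cluster 12. No paired analysis was possible because each condition has 1 library.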
